A study of Mus musculus with 12 samples.

Results

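The genes described here are 32 genes of the unfolded protein response and of protein folding in the endoplasmic reticulum (ER), measured in macrophages of the infarcted mouse heart. They were chosen by symbol, as a list of stress sensors, ER chaperones, disulfide isomerases, degradation factors and translocation factors. All 32 were found among the 55487 genes of the deposited count table, and all 32 passed the filter on low counts that 18773 genes passed. The symbols match 33 rows, because Ddit3 has a second, short row inside the main one.

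Host mice were CD45.2 Mx1Cre Myb flox/flox animals aged 10 to 16 weeks, in which polyI:C induces Cre from the Mx1 promoter and deletes Myb, so that the bone marrow is emptied without irradiation. They received bone marrow of congenic CD45.1 C57BL/6 mice and then ischemia/reperfusion (I/R) injury. At 2 days after I/R, macrophages were sorted from the infarct zone (IZ) and from the remote zone (RZ) of the heart. The 4 groups have 3 libraries each: CD45.2 IZ and CD45.2 RZ (resident, host-derived cells), and CD45.1 IZ and CD45.1 RZ (recruited, donor-derived cells). All groups share the chimeric host and the infarct, and there was no uninjured heart among the libraries. PolyI:C was given before the transplant, so host cells were exposed to it and donor cells were not. The Mx1Cre Myb flox/flox genotype also belongs to the CD45.2 cells alone. In CD45.2 over CD45.1, origin, genotype and this treatment therefore cannot be told apart. The CD45 allele names the origin of a cell and not its stage, and host-derived blood cells that outlast the deletion would also carry CD45.2.

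In the ER, secreted and membrane proteins enter through the Sec61 channel, are folded by chaperones and disulfide isomerases, and are sent on in COPII vesicles or returned to the cytosol for degradation. When unfolded proteins build up, the sensors IRE1 (Ern1), PERK (Eif2ak3) and ATF6 start the unfolded protein response. IRE1 splices Xbp1 mRNA into the form that codes for an active transcription factor, cleaved ATF6 acts together with XBP1 on chaperone genes, and PERK slows translation and leads to CHOP (Ddit3) and GADD34 (Ppp1r15a). Counts per gene, as deposited, do not tell spliced from unspliced Xbp1 and do not measure the activity of a sensor.

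The promoters of many chaperone genes carry the ER stress response element (ERSE), which NF-Y and ATF6 or XBP1 bind, and it is shown here as the element found in more of these promoters than any other searched. ERSE is CCAAT, 9 bases of any kind and CCACG, and ERSE-II is ATTGG, 1 base of any kind and CCACG. Promoter windows from RefSeq (GRCm38.p6, 250 bases before a start to 50 after it) were matched for 27 of the 32 genes and searched on both strands. ERSE was found in 9 of the 27 genes (33.3%), against 37 of all 27025 genes with a window (0.137%), and ERSE-II in 2 of the 27 (7.41%), against 12 of 27025 (0.044%). The genes were chosen as genes of this response, so the larger share describes that choice and tests nothing. In the lines that follow, capitals mark the letters of a motif, and ATTGG with CGTGG in front of it is ERSE read from the other strand.
Hspa5 (chr2:34772020-34772048, plus strand): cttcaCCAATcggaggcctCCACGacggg
Hsp90b1 (chr10:86705518-86705671, minus strand): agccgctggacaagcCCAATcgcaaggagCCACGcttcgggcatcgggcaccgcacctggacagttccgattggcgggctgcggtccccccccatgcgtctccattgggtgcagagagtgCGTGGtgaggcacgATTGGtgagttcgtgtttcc
Pdia6 (chr12:17266476-17266524, plus strand): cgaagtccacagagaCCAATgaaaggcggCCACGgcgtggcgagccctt
Calr (chr8:84847060-84847108, minus strand): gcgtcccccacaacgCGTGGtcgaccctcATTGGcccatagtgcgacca
Canx (chr11:50325785-50325833, minus strand): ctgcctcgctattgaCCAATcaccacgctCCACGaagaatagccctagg
Dnajc3 (chr14:118937812-118937860, plus strand): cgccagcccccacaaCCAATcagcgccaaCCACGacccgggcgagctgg
Creld2 (chr15:88819505-88819553, plus strand): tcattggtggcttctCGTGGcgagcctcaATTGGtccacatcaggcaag
Derl3 (chr10:75893227-75893275, plus strand): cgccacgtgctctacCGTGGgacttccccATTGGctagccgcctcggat
Syvn1 (chr19:6046517-6046565, plus strand): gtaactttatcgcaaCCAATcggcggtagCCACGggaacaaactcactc
Hsp90b1, the ER form of Hsp90, held 2 elements, 1 on each strand. In the other 8 genes the single element began 44 to 162 bases before the start, 65 bases in Hspa5, which codes for the main ER chaperone BiP.

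Herpud1, whose product helps assemble the degradation complex of the ER membrane, held an ERSE-II and also the core of the site of ATF4 and CHOP (TGATGCAA, called CARE), here read from the other strand as TTGCATCA. Its stretch is shown because Herpud1 was the degradation gene whose values ran against those of the others.
Herpud1 (chr8:94386302-94386402, plus strand): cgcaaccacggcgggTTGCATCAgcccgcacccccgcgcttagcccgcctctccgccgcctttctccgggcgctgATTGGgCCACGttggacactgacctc
The second ERSE-II lay 7 bases after the start of Dnajb11, a BiP co-chaperone. The unfolded protein response element of XBP1 (UPRE, TGACGTGG) was found in 1 of the 27 genes, Sec24d, against 193 of 27025, and CARE in Herpud1 alone, against 279 of 27025. Of the 11 genes with ERSE or ERSE-II, 6 were lower in CD45.2 than in CD45.1 macrophages of the RZ and 0 higher. Their median log2 fold change was -0.64. Of the 16 matched genes with neither, 9 were lower and 2 higher, with a median of -0.60. Of all genes tested, 15.8% were lower and 16.2% higher. A match is a run of letters and not a measured binding site.

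Total counts per library were 33253340 to 63435529. The genes of the sorted markers were expressed in all 12 libraries, with 6 genes together at 6792 to 9251 CPM, where CPM is the count of a gene scaled to library size, with TMM factors. The first principal component (54.3% of the variance) followed the 2 populations, and on the second (15.02%) replicate 1 of every group stood apart from replicates 2 and 3. The libraries of replicate 1 have consecutive numbers in the labels, and so do those of replicate 2 and those of replicate 3. Each of these 3 sets holds 1 library of every group. Replicate numbers follow the order of the samples only. Libraries of replicate 2 expressed Y-linked genes and the others Xist. The study's methods give replicate animals for this experiment, but no label ties a library to a mouse, so that P values measure the spread between these libraries, and a lower level in a library may reflect fewer cells with the transcript or less of it per cell, which cannot be told apart here.

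The question of the first comparison was how resident and recruited macrophages differ after I/R. In the RZ, most of the folding machinery was lower in CD45.2 than in CD45.1 macrophages. Of the 32 genes, 19 were lower, with log2 fold changes of -1.39 (Hyou1) to -0.42 (Derl1), and 2 were higher, Ppp1r15a at 1.99 and Ddit3 at 0.91, while 11 did not pass the test. Among all 18773 genes tested, 15.8% were lower and 16.2% higher in this comparison. The median log2 fold change was -0.62 over the 32 genes and 0.04 over all genes tested. All 21 genes that passed had 3 libraries per group that did not overlap. Whether passed or not, 24 of the 32 genes did not overlap, against 7903 of the 18773 genes tested. Tests were edgeR's quasi-likelihood tests with Benjamini-Hochberg adjustment over all genes tested, an adjusted p under 0.05 passed, and log2 fold changes are given ± SE.

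In the IZ fewer of the genes passed. There 8 of the 32 genes were lower in CD45.2 than in CD45.1 macrophages, with log2 fold changes of -0.82 (Hyou1) to -0.47 (Hsp90b1), and the same 2 genes were higher, Ppp1r15a at 1.33 and Ddit3 at 0.56. Of all genes tested, 7.56% were lower and 12% higher. All 10 genes that passed in the IZ had also passed in the RZ, in the same direction. The sign of the log2 fold change was the same in both zones for 32 of 32 genes, against 84.8% of all genes tested, and the size was larger in the RZ for 28 of 32, against 63.8% of all genes tested. The median was -0.47 over the 32 genes and 0.04 over all genes tested. With sex and the second component as covariates, which separate these sets, 22 were lower and 3 higher (12.9% and 17.6% of all genes).

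**Figure D1:**
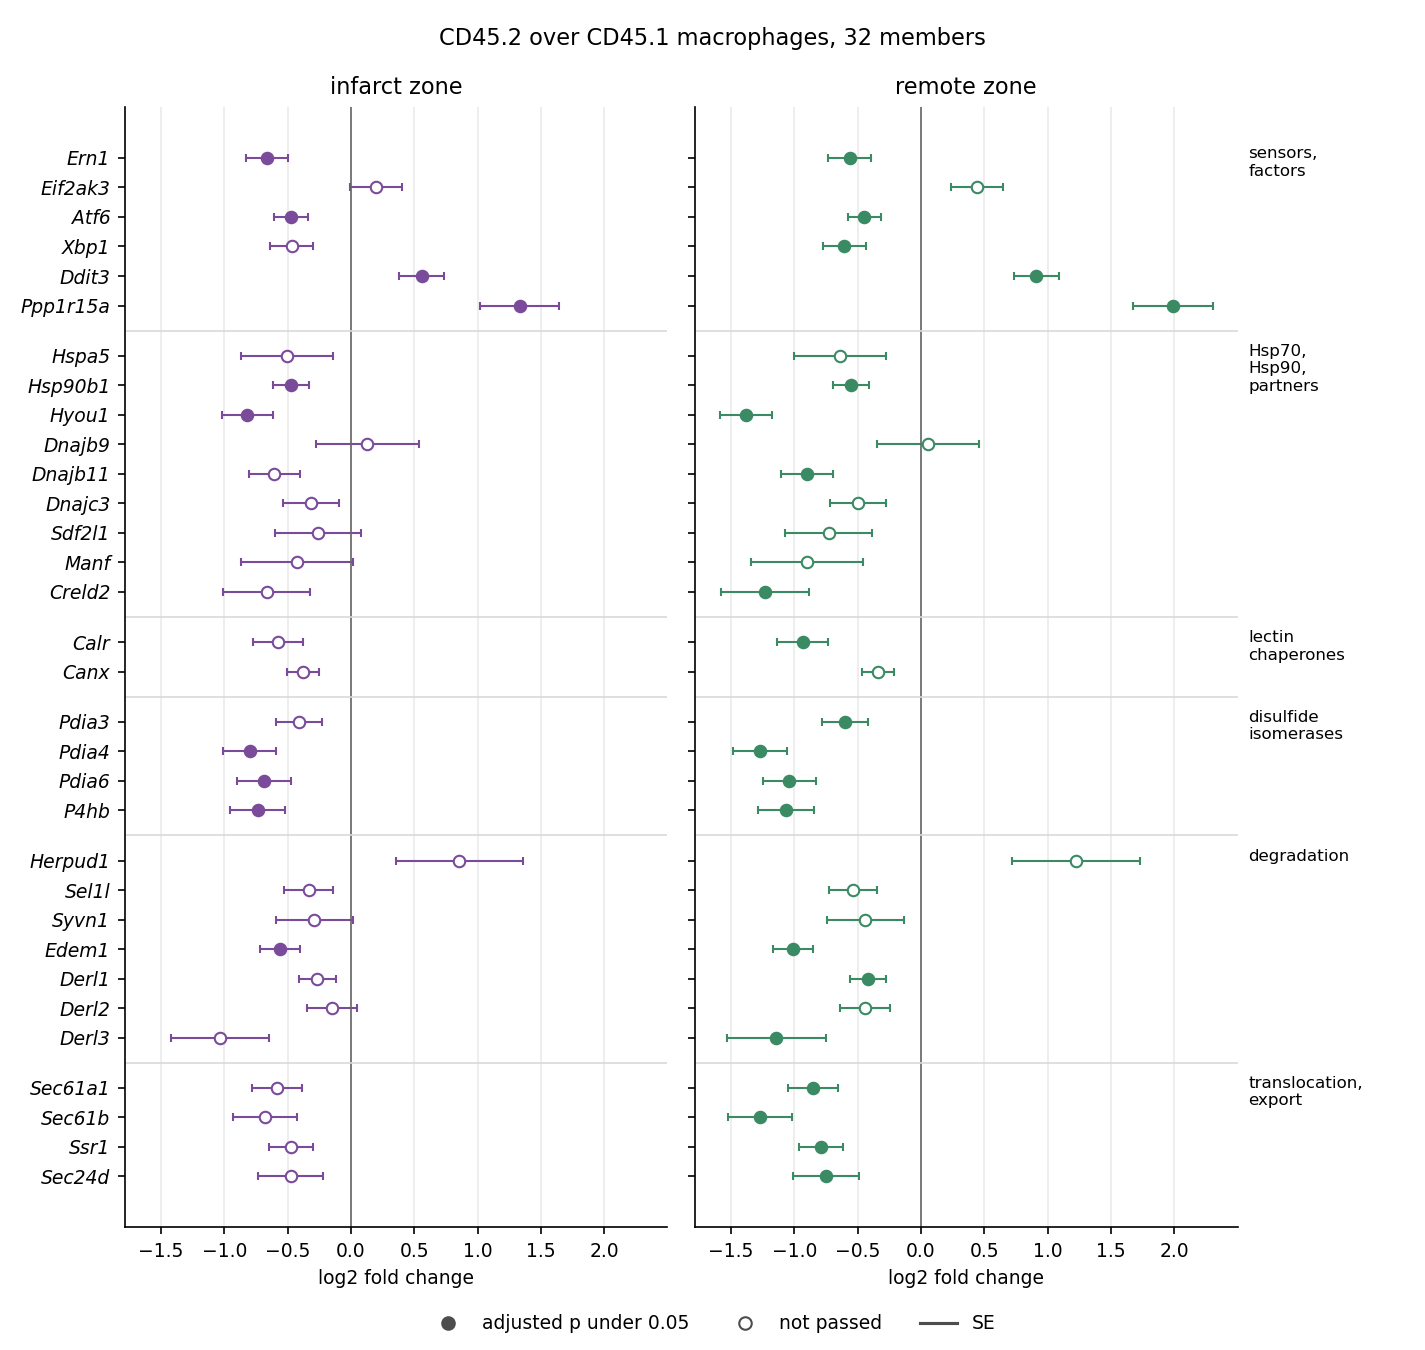
Log2 fold change of CD45.2 over CD45.1 macrophages (x axis) with its SE for the 32 genes, ordered by role, in the infarct zone (left) and the remote zone (right). Filled points passed the test; of these, 8 lie left of 0 and 2 right of it in the IZ, and 19 and 2 in the RZ.

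Hyou1, an ER chaperone of the Hsp70 family that works as the nucleotide exchange factor of BiP (ENSMUSG00000032115, chromosome 9, 44379490 to 44392369), had the smallest adjusted p of the 32 genes in the RZ. It had 40.0, 29.6 and 24.0 CPM in CD45.2 RZ libraries, against 102.4, 81.9 and 60.2 CPM in CD45.1 RZ libraries. In the IZ it had 61.7, 54.2 and 54.0 CPM in CD45.2, against 106.98, 94.7 and 97.7 CPM in CD45.1 libraries. The groups did not overlap in either zone, and the CD45.2 RZ libraries were the lowest of all 12. The log2 fold change was -1.39 ± 0.20 in the RZ (edgeR adjusted p = 0.000432) and -0.82 ± 0.20 in the IZ (adjusted p = 0.0155).

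Pdia4, a disulfide isomerase (chromosome 6, 47796141 to 47813430), had 371, 246 and 227 CPM in CD45.2 RZ, against 820.2, 683 and 530.2 CPM in CD45.1 RZ libraries. In the IZ it had 488, 362 and 382 CPM in CD45.2, against 781, 682 and 679.8 CPM in CD45.1 libraries. Every CD45.2 library lay below every CD45.1 library, also across zones. The log2 fold change was -1.27 ± 0.21 in the RZ (edgeR adjusted p = 0.000996) and -0.80 ± 0.21 in the IZ (adjusted p = 0.0212).

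Edem1 codes for a lectin-like factor that passes misfolded glycoproteins on to degradation (chromosome 6, 108828641 to 108859356). It had 304, 221 and 208 CPM in CD45.2 RZ, against 533, 501 and 444 CPM in CD45.1 RZ libraries, and 421, 332 and 343 CPM in CD45.2 IZ, against 582, 504 and 529 CPM in CD45.1 IZ libraries. The groups did not overlap in either zone. The log2 fold change was -1.01 ± 0.16 in the RZ (edgeR adjusted p = 0.000671) and -0.56 ± 0.16 in the IZ (adjusted p = 0.029).

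Of the 2 genes that rose, Ppp1r15a codes for GADD34, the stress-induced subunit that directs a phosphatase to eIF2α and so restores translation (chromosome 7, 45522916 to 45526268). It had 252, 513 and 593 CPM in CD45.2 RZ, against 83.8, 119 and 139.6 CPM in CD45.1 RZ libraries. In the IZ it had 209, 325 and 379 CPM in CD45.2, against 111.9, 110.2 and 140.4 CPM in CD45.1 libraries. Every CD45.2 library was above every CD45.1 library, and replicate 1 was the lowest of its group in both CD45.2 groups. The log2 fold change was 1.99 ± 0.32 in the RZ (edgeR adjusted p = 0.000728) and 1.33 ± 0.31 in the IZ (adjusted p = 0.0116).

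Ddit3, which codes for the transcription factor CHOP (chromosome 10, 127290774 to 127296288), had 22.5, 30.0 and 34.1 CPM in CD45.2 RZ, against 16.5, 16.7 and 12.9 CPM in CD45.1 RZ libraries. In the IZ it had 30.2, 25.1 and 29.8 CPM in CD45.2, against 19.9, 16.2 and 21.8 CPM in CD45.1 libraries. The groups did not overlap in either zone, and the log2 fold change was 0.91 ± 0.18 in the RZ (edgeR adjusted p = 0.00261) and 0.56 ± 0.18 in the IZ (adjusted p = 0.0461). The IZ call of Ddit3 held in 7 of 10 alternative fits and in 3 of 12 fits with 1 library left out. The second row named Ddit3 (all of its bases lie inside the main row) gave 1.19 in the RZ (adjusted p = 0.00798) and 0.63 in the IZ (adjusted p = 0.139), from reads that the main row also holds.

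A list of 14 immediate early and heat shock genes, which respond to cell handling among other stimuli, moved in the same direction as Ppp1r15a and Ddit3. In the RZ 10 of the 14 were higher in CD45.2 than in CD45.1 macrophages and none was lower, and in the IZ 7 were higher and none lower. Of all genes tested, 16.2% were higher in the RZ and 12% in the IZ. None of the 14 genes was at 0 in any library. Their summed level was 15563, 32076 and 34589 CPM in CD45.2 RZ, against 9976, 9616 and 11440 CPM in CD45.1 RZ libraries, and 14461, 16983 and 22408 CPM in CD45.2 IZ, against 12129, 9556 and 11205 CPM in CD45.1 IZ libraries. As for Ppp1r15a, replicate 1 was the lowest in both CD45.2 groups. The part of this response in the levels of Ppp1r15a and Ddit3 was not tested.

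The sensors themselves did not move together. Ern1, which codes for IRE1 (chromosome 11, 106394650 to 106487852), had 16.1, 23.1 and 24.3 CPM in CD45.2 RZ, against 28.2, 30.7 and 34.9 CPM in CD45.1 RZ libraries, and 19.4, 22.5 and 22.5 CPM in CD45.2 IZ, against 28.8, 37.1 and 36.0 CPM in CD45.1 IZ libraries. It was lower in CD45.2 cells in both zones without overlap, by log2 fold changes of -0.56 ± 0.17 in the RZ (edgeR adjusted p = 0.0241) and -0.66 ± 0.17 in the IZ (adjusted p = 0.0174). Atf6 had 82.0, 98.3 and 76.5 CPM in CD45.2 RZ, against 100.1, 126 and 123 CPM in CD45.1 RZ libraries, and 102.1, 101.4 and 90.9 CPM in CD45.2 IZ, against 118, 145 and 146 CPM in CD45.1 IZ libraries. It too was lower without overlap, by -0.45 ± 0.13 in the RZ (edgeR adjusted p = 0.0251) and -0.47 ± 0.13 in the IZ (adjusted p = 0.0283).

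Eif2ak3, which codes for PERK, passed in neither zone. It had 52.3, 46.1 and 55.3 CPM in CD45.2 RZ, against 46.8, 29.0 and 37.4 CPM in CD45.1 RZ libraries, and 48.8, 39.4 and 39.3 CPM in CD45.2 IZ, against 48.2, 30.7 and 32.2 CPM in CD45.1 IZ libraries. The groups overlapped in both zones, and the log2 fold changes were 0.44 ± 0.20 (edgeR adjusted p = 0.115) and 0.20 ± 0.20 (adjusted p = 0.522) in the RZ and the IZ. With sex and the side of the second component as covariates, which separate the 3 sets of libraries, Eif2ak3 was higher in the RZ (0.47, edgeR adjusted p = 0.0126) and did not pass in the IZ. Of its exon length, 8.05% is shared with an opposite-strand gene, whose reads cannot be told apart.

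Xbp1 (chromosome 11, 5520659 to 5525893) codes for the transcription factor that IRE1 activates. It had 391, 262 and 321 CPM in CD45.2 RZ, against 515, 456 and 509.6 CPM in CD45.1 RZ libraries, and 394, 299 and 347 CPM in CD45.2 IZ, against 547, 397 and 493 CPM in CD45.1 IZ libraries. The groups did not overlap in either zone. It was lower in CD45.2 RZ macrophages, with a log2 fold change of -0.61 ± 0.17 (edgeR adjusted p = 0.0182), while the IZ value of -0.47 ± 0.17 did not pass (adjusted p = 0.0761). With the same 2 covariates Xbp1 was lower in the IZ as well (-0.46, edgeR adjusted p = 0.005).

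Hspa5, which codes for BiP (chromosome 2, 34771970 to 34777547), was the most abundant of the 32 genes per length, with a mean of 1386 TPM (transcripts scaled for length and library size) over the 12 libraries. It had 2360, 1311 and 1571 CPM in CD45.2 RZ, against 3845, 2274 and 2051 CPM in CD45.1 RZ libraries, and 3520, 1896 and 2173 CPM in CD45.2 IZ, against 5280, 2275 and 3207 CPM in CD45.1 IZ libraries. In each group replicate 1 was the highest, and the groups overlapped in both zones. The log2 fold changes of -0.64 ± 0.36 in the RZ (edgeR adjusted p = 0.199) and -0.50 ± 0.36 in the IZ (adjusted p = 0.359) did not pass. With the side of the second principal component as a covariate the same log2 fold changes for Hspa5 were -0.62 (edgeR adjusted p = 0.00564) and -0.48 (adjusted p = 0.0299). In that fit 20.6% of all genes were lower in the RZ and 12.1% in the IZ. The covariate was read from these same counts, and it takes up the spread between replicate 1 and the rest that Hspa5 shows.

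**Figure D2:**
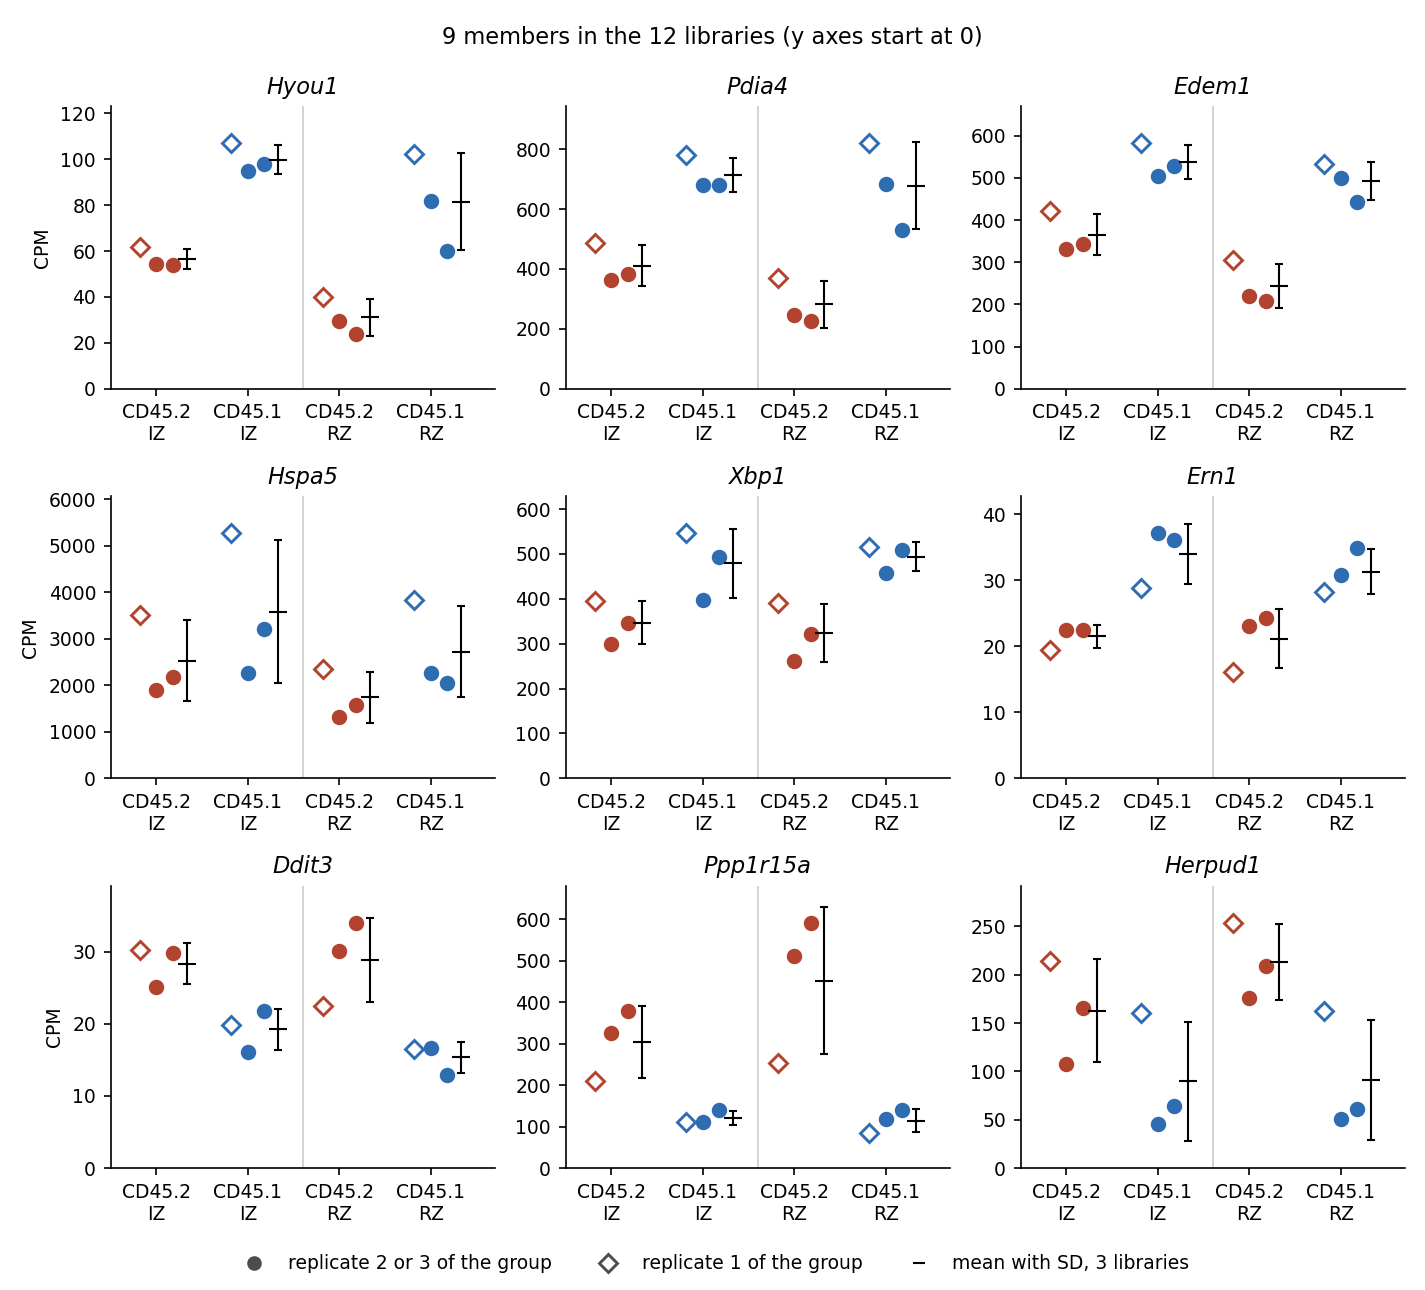
CPM (y axis, from 0) of 9 of the genes in the 12 libraries by group (x axis), with the mean and SD of 3 libraries beside the points; open diamonds are replicate 1 of each group. CD45.2 libraries lie below CD45.1 libraries of the same zone for Hyou1, Pdia4, Edem1, Xbp1 and Ern1 and above them for Ddit3 and Ppp1r15a, while for Hspa5 the groups overlap in both zones and for Herpud1 in the IZ.

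By role, all 4 disulfide isomerases were lower in CD45.2 RZ macrophages, with log2 fold changes of -1.07 for P4hb, -1.04 for Pdia6 and -0.60 for Pdia3 beside Pdia4. Counts by role are to be read against all genes tested, 15.8% lower and 16.2% higher in the RZ. In the IZ these shares were 7.56% and 12%. Pdia4, P4hb (-0.74) and Pdia6 (-0.69) were also lower in the IZ, where Pdia3, the partner of calnexin and calreticulin, had -0.41 and did not pass. All 4 translocation and export genes were lower in the RZ. The call of Sec24d (edgeR adjusted p = 0.0455) held in 4 of 12 fits with 1 library left out. Sec61b, a subunit of the Sec61 channel, had -1.27, its pore subunit Sec61a1 -0.85, the translocon-associated Ssr1 -0.79 and the COPII coat gene Sec24d -0.75, and none of the 4 passed in the IZ, where they had -0.68 to -0.47. With sex and the second component as covariates, Pdia3 (edgeR adjusted p = 0.0246), Sec61a1 (0.0023), Sec61b (0.021), Ssr1 (0.00396) and Sec24d (0.00645) were lower in the IZ. In that fit 12.9% of all genes were lower in the IZ.

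Of the 9 genes for Hsp70, Hsp90 and their partners, 4 were lower in CD45.2 RZ macrophages and 0 higher (15.8% and 16.2% of all genes tested). Beside Hyou1 these were Creld2, a secreted ER stress protein (-1.23), Dnajb11 (-0.90) and Hsp90b1 (-0.55). Manf, an ER stress-induced factor that binds BiP, had -0.90 ± 0.44, the BiP partner Sdf2l1 -0.73 ± 0.34, and the co-chaperone Dnajc3 -0.50 ± 0.22, and none of them passed. Dnajb9, a co-chaperone of BiP that also holds IRE1 in check, had 0.06 ± 0.40, with opposite signs in the sets of libraries. Its log2 ratio in the RZ was -0.58 within replicate 1 and 0.60 within the other 8 libraries. In the IZ the ratios were -0.49 and 0.66. Without the 4 libraries of replicate 1, Dnajb9 passed as higher in both zones, as did 17.3% of all genes in the RZ and 12.5% in the IZ. Those libraries were set apart by the same counts, so leaving them out does not decide the direction of Dnajb9. In the IZ, 2 of the 9 were lower, Hyou1 and Hsp90b1 (-0.47), against 7.56% of all genes tested. The lectin chaperone Calr was lower in the RZ (-0.93) and had -0.58 in the IZ, which did not pass, and Canx had -0.34 and -0.38, which did not pass in either zone. With sex and the second component as covariates, Manf (edgeR adjusted p = 0.00056), Sdf2l1 (0.000727), Dnajc3 (0.00157) and Canx (0.0282) were lower in the RZ. In that fit 21.1% of all genes were lower in the RZ and 12.9% in the IZ. In the IZ, Dnajb11 (0.00169), Creld2 (0.00353), Calr (0.00471), Canx (0.0252) and Dnajc3 (0.0267) were lower in that fit by adjusted p, while Manf (0.0713) and Sdf2l1 (0.136) did not pass.

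Of the 7 degradation genes, 3 were lower in CD45.2 RZ macrophages and 0 higher (15.8% and 16.2% of all genes tested). These were Edem1, Derl3 (-1.14) and Derl1 (-0.42), the last 2 coding for derlins of the ER membrane. Derl3 was the rarest of the 32 genes, with 26 to 146 counts per library. With 1 library left out in turn, the RZ call of Derl3 (edgeR adjusted p = 0.0423) held in 5 of 12 fits. That of Derl1 (adjusted p = 0.0451) held in 4 of 12. The ubiquitin ligase Syvn1, its adaptor Sel1l and Derl2 had log2 fold changes of -0.44, -0.54 and -0.44 in the RZ, and -0.29, -0.33 and -0.15 in the IZ, and passed in neither zone. With sex and the second component as covariates, Sel1l (edgeR adjusted p = 0.000674), Derl2 (0.0023) and Syvn1 (0.00896) were lower in the RZ, and Sel1l (0.0152) and Derl3 (0.0353) in the IZ. In that fit 21.1% of all genes were lower in the RZ and 12.9% in the IZ.

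Herpud1 stood against the other degradation genes in sign. It had 254, 176 and 209 CPM in CD45.2 RZ, against 163, 50.8 and 60.6 CPM in CD45.1 RZ libraries, and 214.6, 107.8 and 166 CPM in CD45.2 IZ, against 160.2, 45.14 and 64.3 CPM in CD45.1 IZ libraries. The groups did not overlap in the RZ and overlapped in the IZ, where replicate 1 of CD45.1 lay above replicate 2 of CD45.2. The log2 fold changes of 1.22 ± 0.51 in the RZ (edgeR adjusted p = 0.0853) and 0.86 ± 0.50 in the IZ (adjusted p = 0.256) did not pass. Without the 4 libraries of replicate 1, Herpud1 had 1.79 in the RZ (edgeR adjusted p = 0.000733) and 1.30 in the IZ (adjusted p = 0.00571). The same fit called 17.3% of all genes higher in the RZ and 12.5% in the IZ. Replicate 1 was set apart by these same counts, and Herpud1 differed most there among the genes described (1.05 in log2 CPM). Leaving it out removes much of the spread of Herpud1, so these p values do not decide whether Herpud1 was higher.

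How far the calls held depended on the zone. Of the 21 calls of the RZ, 12 held in each of 10 alternative fits and after leaving out each library, namely Ddit3, Ppp1r15a, Hyou1, Dnajb11, Calr, Pdia4, Pdia6, P4hb, Edem1, Sec61a1, Sec61b and Ssr1. Of the 10 calls of the IZ, 0 held in all of them, and none of the 31 calls changed sign. In the IZ, 1 gene was lower without replicate 2 of CD45.1 IZ (4.36% of all genes), 1 without replicate 2 of CD45.2 IZ (3.91%) and 1 without replicate 3 of CD45.2 IZ (3.72%), while 15 were lower without replicate 1 of CD45.2 RZ (9.48%). With DESeq2 16 genes were lower in the IZ and 10.8% of all genes, and with limma-voom 21 and 16.5%.

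The replicate 1 libraries had higher levels of most of the 32 genes than the rest of their groups. Of the 32 genes, 26 had a higher level in replicate 1 than the mean of replicates 2 and 3 in all 4 groups (81.2%, against 20.3% of all genes tested), and the median difference was 0.39 in log2 CPM, against 0.00 over all genes tested. Herpud1 (1.05), Manf (1.04), Hspa5 (0.83), Sdf2l1 (0.80) and Creld2 (0.79) differed most. Ppp1r15a (-0.66) and Ern1 (-0.33) had a lower level in replicate 1 in all 4 groups. Mitochondrial genes took 0.134% to 0.171% of counts in replicate 1 and 0.22% to 0.463% in replicates 2 and 3, and endothelial markers summed to 12.9 to 44.2 CPM in replicate 1 and 74.7 to 242 CPM in replicates 2 and 3. Red cell markers summed to 0.678 to 8.25 CPM in replicate 1 and 22.2 to 111.5 CPM in replicates 2 and 3. The part of mitochondrial, endothelial and red cell transcripts in the levels of the 32 genes was not tested.

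**Figure D3:**
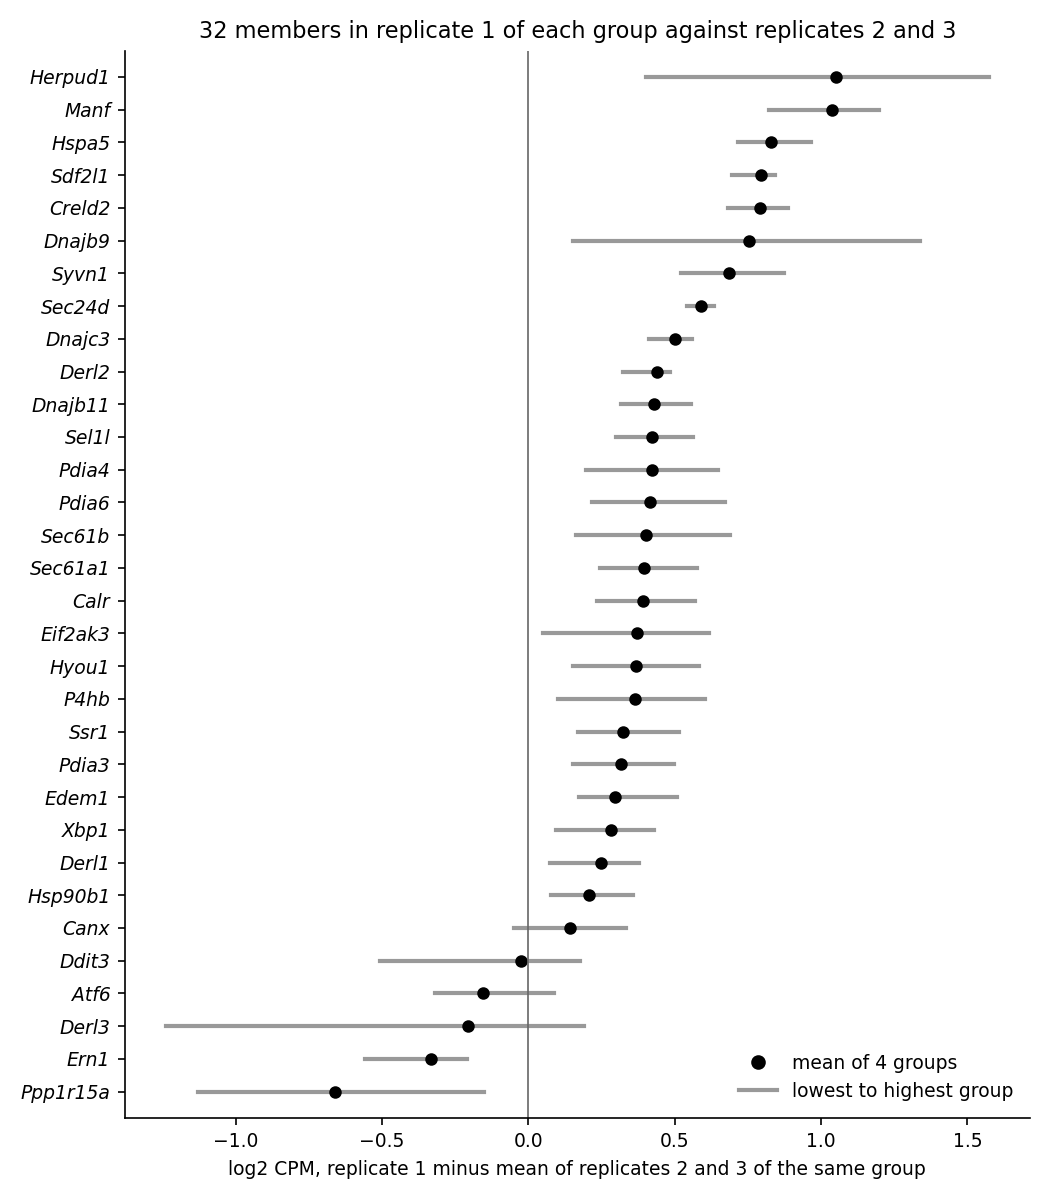
Difference in log2 CPM between replicate 1 and the mean of replicates 2 and 3 of the same group (x axis) for the 32 genes (y axis); the point is the mean of the 4 groups and the bar runs from the lowest to the highest group. The difference is above 0 in all 4 groups for 26 genes and below 0 in all 4 for Ern1 and Ppp1r15a.

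Within replicate 1, with 1 library per group and no test, the log2 ratio of CD45.2 to CD45.1 in the RZ was negative for 28 of the 32 genes (median -0.64), and within the other 8 libraries for 27 (median -0.71). In the IZ it was negative for 28 within replicate 1 (median -0.45) and for 27 within the other libraries (median -0.47). For Ppp1r15a the RZ log2 ratio was 1.59 within replicate 1 and 2.10 within the other libraries, and for Hyou1 -1.36 and -1.40. With the side of the second component as a covariate, 27 of the 32 genes were lower and 4 higher in the RZ (20.6% and 21.4% of all genes), and 21 lower and 3 higher in the IZ (12.1% and 17% of all genes). Sex and side of the second component together separate the same 3 sets of libraries as the replicate numbers, so that a fit with both is also a fit with these sets as a block. It gave 27 lower and 4 higher genes in the RZ (21.1% and 22.2% of all genes) and 22 lower and 3 higher in the IZ (12.9% and 17.6% of all genes). In both fits the higher genes were Eif2ak3, Ddit3, Ppp1r15a and Herpud1 in the RZ and the last 3 in the IZ.

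The second question was whether the infarct changed these genes relative to the remote zone. None passed the test in either population. In CD45.2 macrophages, 0 of 32 genes were higher and 0 lower in the IZ than in the RZ, with 1.46% of all genes tested higher and 0.293% lower, and 10 of the 32 had an unadjusted p under 0.05 in edgeR's test, as did 2963 of the 18773 genes. DESeq2 and limma-voom each called 2 of the 32 higher, Hyou1 and Edem1, and 4.54% and 2.23% of all genes in that order. The log2 fold change was positive for 28 of 32 genes, with a median of 0.31, against 0.02 over all genes tested. The median was 0.16 without replicate 1 of CD45.2 IZ and 0.50 without replicate 1 of CD45.2 RZ. Of the 32 genes, 2 had an unadjusted p under 0.05 in edgeR's test without replicate 1 of CD45.2 IZ (1946 of all 19589 genes). Also 2 had one without replicate 2 of CD45.2 RZ (2297 of 19405) and 2 without its replicate 3 (2182 of 19323). Without replicate 1 of CD45.2 RZ, 18 had one (4990 of 19603), so that the count over all genes moved as well. Between the zones 4 of the 32 genes did not overlap, against 3560 of the 18773 genes tested. These were Hyou1, Dnajb11, Edem1 and Sec61b, and all 4 were higher in the IZ libraries.

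Hyou1 had the smallest adjusted p of this comparison among the 32 genes, with a log2 fold change of 0.86 ± 0.20 (edgeR adjusted p = 0.0597). Its 3 CD45.2 IZ libraries at 54.0 to 61.7 CPM lay above the 3 CD45.2 RZ libraries at 24.0 to 40.0 CPM. Edem1 had 0.58 ± 0.16 (edgeR adjusted p = 0.0975), with 332 to 421 CPM in CD45.2 IZ, against 208 to 304 CPM in CD45.2 RZ libraries. Ppp1r15a had -0.57 ± 0.31 (edgeR adjusted p = 0.4), with groups that overlapped.

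With the side of the second component as a covariate, 11 of the 32 genes were higher in CD45.2 IZ than in CD45.2 RZ macrophages and 0 lower (4.08% and 1.89% of all genes). These were Calr, Creld2, Dnajb11, Edem1, Hyou1, Manf, Pdia4, Pdia6, Sec24d, Sec61a1 and Ssr1. With sex added, Hspa5 was higher as well, which makes 12 (5.06% of all genes higher and 2.7% lower). Without replicate 1 of CD45.2 RZ, 5 of the 32 were higher, and 4.4% of all genes.

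In CD45.1 macrophages, 0 of 32 genes were higher or lower in the IZ than in the RZ, with 0% of all genes tested higher and 0% lower. By edgeR's test 0 of the 32 and 1486 of the 18773 had an unadjusted p under 0.05. DESeq2 called 0 of the 32 and, of all genes, 38 higher and 152 lower, and limma-voom called 0 of either. Log2 fold changes ran from -0.06 (Sec61b) to 0.40 (Hspa5), with a median of 0.12. For all 32 genes the libraries of the zones overlapped, while 2918 of the 18773 genes tested did not overlap. For the difference between the zone effects, CD45.2 minus CD45.1, 0 of 32 genes and 0% of all genes tested passed in either direction, and 0 of the 32 had an unadjusted p under 0.05 by edgeR's test. Of all genes 821 had such a p, and DESeq2 called 139 positive and 24 negative and limma-voom 25 and 0, none of them among the 32. With other settings more of the 32 had such a p, though 0 were called, namely 7 with limma-voom (1465 of all genes), 9 with the second component as a covariate (1341), 10 with sex added (1466) and 8 without replicate 1 of CD45.2 RZ (1776). In the edgeR fit on all 12 libraries these differences ran from -0.65 ± 0.43 (Ppp1r15a) to 0.59 ± 0.35 (Sec61b). The 2 zone effects were not shown to differ for any of the genes, and each effect was compared with RZ libraries of its own population.

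**Figure D4:**
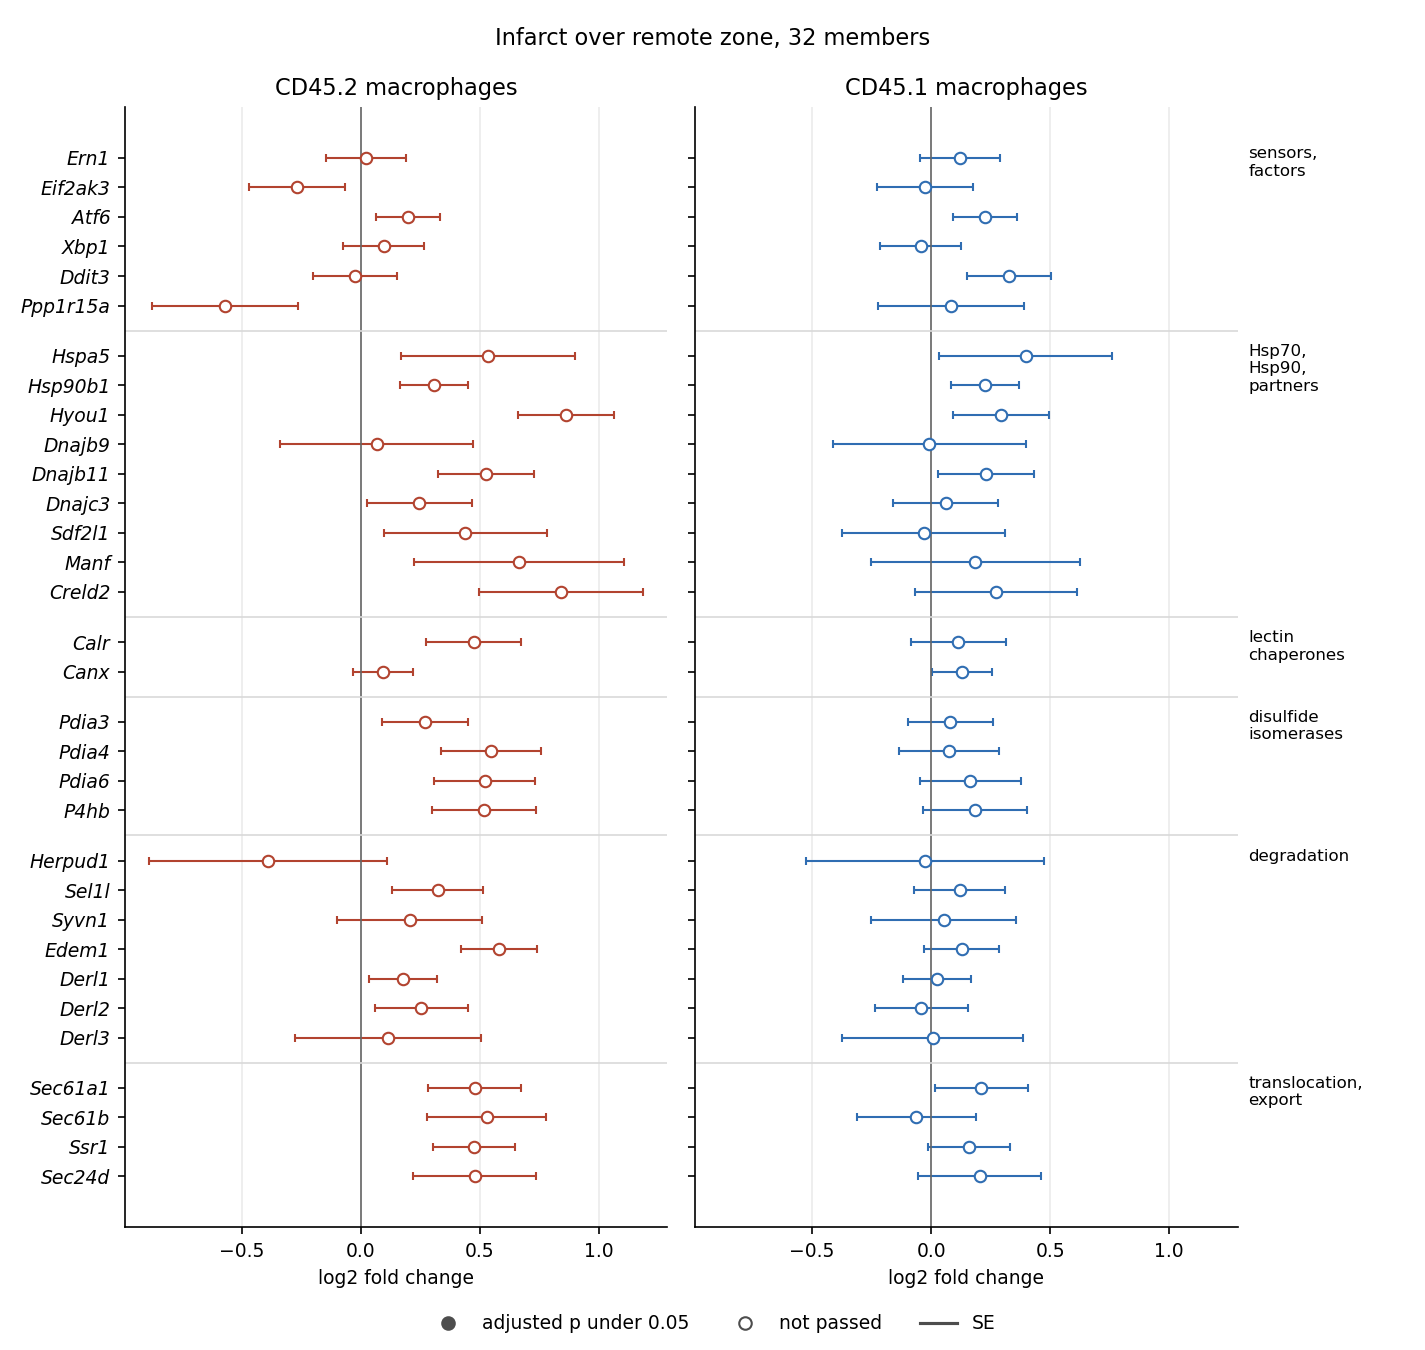
Log2 fold change of the infarct over the remote zone (x axis) with its SE for the 32 genes, ordered by role, in CD45.2 (left) and CD45.1 (right) macrophages. No point is filled, since none passed the test; 28 of 32 points lie right of 0 in CD45.2 and 25 of 32 in CD45.1 macrophages.

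Together the 32 genes took 1.153%, 0.843% and 0.857% of all counts in CD45.2 RZ, against 1.68%, 1.35% and 1.20% in CD45.1 RZ libraries. In the IZ they took 1.46%, 1.11% and 1.13% of counts in CD45.2, against 1.82%, 1.38% and 1.48% in CD45.1 libraries. The share was lower in every CD45.2 RZ library than in every CD45.1 RZ library, while in the IZ replicate 1 of CD45.2 lay within the range of CD45.1. Per length, Hspa5 was followed by Pdia3 (889 TPM), Calr (813 TPM), P4hb (739 TPM) and Hsp90b1 (671 TPM), as means of 12 libraries, and the sensors were near the other end, with Atf6 at 26.5, Eif2ak3 at 15.8 and Ern1 at 7.37 TPM. Derl3 was lowest, at 1.70 TPM.

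Other genes of the ER pathway were counted in 9 lists chosen by hand, which hold 134 tested genes. In the RZ 53 of the 134 were lower in CD45.2 than in CD45.1 macrophages and 9 higher, with a median log2 fold change of -0.33, against 0.04 over all genes tested. These are 39.6% and 6.72% of the 134, against 15.8% and 16.2% of all genes tested. In the IZ 20 were lower and 5 higher (14.9% and 3.73%, against 7.56% and 12% of all genes tested), and between the zones 0 passed in either population, with 0 of these 134 also called for the difference of zone effects. The translocon and signal peptidase list had 13 of 21 lower and 0 higher in the RZ, led by Tram2 (-0.87 in the RZ and -0.86 in the IZ) and the signal peptidase subunit Sec11a (-0.69 and -0.46). COPII export and KDEL receptors had 10 of 20 lower and 1 higher, with the coat gene Sec23a at -0.52 and -0.34 and Sar1b, the small GTPase of the coat, at -0.75 and -0.41, the last of which did not pass.

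For N-glycosylation and glycan trimming, 9 of 16 were lower in the RZ and 1 higher. Of all genes tested, 15.8% were lower and 16.2% higher in the RZ. Ostc, of the oligosaccharyltransferase complex, had -0.78, and the higher gene, Uggt2, a glucosyltransferase that tags misfolded glycoproteins, had 2.94. In the IZ they had -0.45 and 1.32, and neither passed. For disulfide formation and proline isomerases, 7 of 18 were lower and 2 higher in the RZ. Ero1a, the oxidase that recharges the isomerases, was lower by -1.77 ± 0.21 in the RZ (edgeR adjusted p = 9.9e-05) and -1.21 ± 0.21 in the IZ (adjusted p = 0.00204), and the proline isomerase Fkbp14 was higher in both zones, by 2.80 in the RZ. For the other degradation genes, 7 of 22 were lower and 0 higher, led by the signal peptide peptidase Hm13 (-1.13 and -0.74) and the ubiquitin-conjugating enzyme Ube2j2 (-0.78 and -0.50).

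The lists of the 3 sensor branches had few calls, with shares to be read against the 15.8% lower and 16.2% higher of all genes tested in the RZ. In the PERK and ATF4 list 4 of 16 were lower (25%) and 1 higher (6.25%) in the RZ, with a median log2 fold change of -0.01. The transcription factor Cebpb, a partner of CHOP, was lower by -1.15 in the RZ and -0.75 in the IZ, and Eif2s1, which codes for eIF2α itself, by -1.02 and -0.62. In the ATF6 and CREB3 list 2 of 9 were lower (22.2%) and 1 higher (11.1%), with Wfs1, an ER membrane protein, at 0.59 in the RZ and -0.26 in the IZ (the last did not pass) and Creb3l1, an ATF6 relative, at -0.98 and -0.53 (the last did not pass). In the IRE1 list the shares were those of all genes, at 16.7% each way. There 1 of 6 was lower, the ER-bound phosphatase Ptpn1 (-0.73 and -0.58), and 1 higher, the kinase Map3k5 (0.55 in the RZ, and 0.25 in the IZ, which did not pass). Among 6 ER-phagy receptors 2 were higher in both zones and 0 lower, Ccpg1 at 0.92 in the RZ and 1.01 in the IZ and Calcoco1 at 0.74 and 0.85.

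Markers of other cells differed between the populations in part. Counts of markers are to be read against all genes tested, 16.2% higher and 15.8% lower in the RZ. In the IZ these shares were 12% and 7.56%. B and plasma cell genes, which matter here because plasma cells are rich in these chaperones, were 5 higher and 2 lower of 10 tested in the RZ. Their summed level was 325 to 729.9 CPM in CD45.2 RZ, against 119 to 166 CPM in CD45.1 RZ libraries, and 173 to 336 CPM in CD45.2 IZ, against 140 to 194 CPM in CD45.1 IZ libraries, with 68% of it from Ighm. Its plasma cell genes did not run 1 way. Jchain was at 0.0189 to 14.7 CPM in CD45.2 RZ libraries and at 0 in the CD45.1 RZ libraries, and at most 0.0565 CPM in CD45.2 IZ, against 0.0235 CPM in CD45.1 IZ libraries. Sdc1, the gene of CD138, had 3.64 to 3.88 CPM in CD45.2 RZ, against 18.7 to 66.5 CPM in CD45.1 RZ libraries, and 20.2 to 26.5 CPM in CD45.2 IZ, against 84.0 to 131.6 CPM in CD45.1 IZ libraries. Of 13 heart muscle genes tested, 9 were higher and 1 lower in CD45.2 than in CD45.1 macrophages of the RZ, and 8 and 0 in the IZ. The summed level of all 14 muscle genes was 255 to 412 CPM in CD45.2 RZ, against 487 to 719 CPM in CD45.1 RZ libraries, and 409 to 519 CPM in CD45.2 IZ, against 603 to 802 CPM in CD45.1 IZ libraries, with 89.3% of it from Atp2a2, which codes for a calcium pump of the ER that other cells also use. Neutrophil markers had lower summed levels in CD45.2 macrophages, the direction of most of the 32 genes. Of 7 tested 2 were lower and 0 higher in the RZ, and 1 and 0 in the IZ. Ly6g, the defining neutrophil gene, was at 0 in all 6 CD45.2 libraries and at most 0.0805 CPM in the CD45.1 libraries, and the highest S100a8 level was 4.90 CPM among CD45.2 libraries, against 16.1 CPM among CD45.1 libraries. The summed level of the 12 neutrophil genes was 76.6 to 83.4 CPM in CD45.2 RZ, against 223 to 327 CPM in CD45.1 RZ libraries, and 88.1 to 118 CPM in CD45.2 IZ, against 215 to 293 CPM in CD45.1 IZ libraries, without overlap in either zone, with 58.3% of it from Csf3r. Of 12 fibroblast genes 1 was higher and 1 lower in each zone, and 11 had positive log2 fold changes in both (median 2.53 in the RZ and 2.31 in the IZ). Of 12 endothelial genes 0 passed in either zone, and 11 in the RZ and 12 in the IZ had positive log2 fold changes (median 1.24 and 1.20). None of 10 proliferation genes passed, and all 10 had positive log2 fold changes in both zones, with summed levels of 112.7 to 407 CPM in CD45.2 RZ, against 79.2 to 163 CPM in CD45.1 RZ libraries. The part of these cells in the levels of the 32 genes was not tested.

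Of the 32 genes, 20 share no exon with another gene, and 12 do. The shares that exceed 5% of a gene's exons are 10.3% for Hsp90b1, 8.16% for Sec61a1 and 8.05% for Eif2ak3, each with a gene on the opposite strand, and 6.13% for Ddit3 with its own second row. Pairs were counted for every gene they overlapped and strand was not used, so that reads in these parts cannot be assigned to 1 gene.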

How the data were processed

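The authors deposited 1 table of raw counts per gene for 12 libraries of sorted macrophages (CD45+ CD11b+ F4/80+ CD64+, lineage negative), made with SMART-Seq v4, which keeps no strand and no molecular tags. According to the submitters' processing notes and the study's methods, trimmed reads were mapped by HISAT2 2.2.1 (genome GRCm38.p6), and Subread 2.0.1 (featureCounts) gave the gene counts, with a pair counted for every gene it overlapped. From these counts, genes were kept by filterByExpr (10 counts in enough libraries, 15 in all) and scaled by TMM, and 1 mean per group was fitted with edgeR 4.0.16 in R 4.3.3 (quasi-likelihood test, Benjamini-Hochberg within each of 5 comparisons, adjusted p under 0.05). Each SE was derived from the log2 fold change and the F statistic of its test. TPM was computed from counts and exon length. The libraries were amplified from a small number of sorted cells, and without tags for single molecules copies are counted as reads. The depth of 33253340 counts or more therefore does not by itself give the counting error.

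Alternatives were DESeq2 1.42.0, its size factors in edgeR, limma-voom 3.58.1 with quality weights, no filter or 1 CPM in 3 libraries, the 6 libraries of a comparison, sex or side of the second component or both as covariates, and leaving out replicate 1 of every group or each library in turn. Groups came from the labels, while the side of the second component was read from the same counts that were tested. No 2 of the 12 libraries held the same counts. The fit was tested on simulated data.

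The 32 genes and all lists were chosen with earlier results of these data known. Values in every library are given for the sensors, Xbp1, Ddit3, Ppp1r15a, Hspa5 and the up to 4 genes with the smallest adjusted p among those that passed in each comparison of 2 groups (none passed between zones). For each of the 9 pathway lists the 2 genes with the smallest adjusted p among those that passed are named. Herpud1 was singled out after its values were seen. Ero1a and Hm13 are Ero1l and H13 in the annotation. Promoter sequences are from RefSeq. Atf6, Derl1, Hyou1, Manf and Sec61a1 were not matched to a promoter window.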

Additional observations from a re-analysis of the deposited data

How the results depend on the processing

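The study sorted both populations from both zones of chimeric hearts, so libraries of different groups may share a mouse. No label ties a library to a mouse, and the replicate numbers follow sample order only. The main fit therefore does not pair libraries, and its tests leave out any such pairing. The fit with sex and the second component, which separate the same 3 sets, stands in for a block. Between populations in the RZ, 19 lower genes became 12 with the 6 libraries of the comparison alone (11.9% of all genes). They became 25 with limma-voom (20.3%) and 27 with the second component as a covariate (20.6%). They were also 27 with sex added (21.1%) and 25 without the 4 libraries of replicate 1 (17.3%). The 2 higher genes became 4 with the second component (21.4% of all genes), 4 with sex added (22.2%) and 5 without the 4 libraries (17.3%). Leaving out each library gave 11 to 22 lower genes and 2 to 3 higher. The lower genes were 11 without replicate 3 of CD45.2 RZ (10.2% of all genes) and 12 without replicate 1 of CD45.1 RZ (10.6%). They were 22 without replicate 1 of CD45.2 RZ (19.4%). In the IZ, 8 lower genes became 16 with DESeq2 (10.8% of all genes), 21 with limma-voom (16.5%) and 13 with 6 libraries (10%). They became 21 with the second component (12.1%), 22 with sex added (12.9%) and 17 without the 4 libraries (8.94%). The 2 higher genes became 1 without a filter on low counts (6.24% of all genes) and 1 with sex as a covariate (11.3%). Leaving out each library gave 1 to 15 lower and 0 to 2 higher genes. The lowest counts of lower genes were 1 without replicate 2 of CD45.1 IZ (4.36% of all genes) and 1 without replicate 2 or 3 of CD45.2 IZ (3.91% and 3.72%). Then came 3 without replicate 1 or 3 of CD45.1 IZ (5.11% and 4.75%). For IZ over RZ in CD45.2 macrophages, 0 higher genes became 2 with DESeq2 (4.54% of all genes) and 2 with limma-voom (2.23%). They became 1 without a filter (1.08%) and 1 with the CPM filter (1.96%). With the second component they became 11 (4.08%), with sex added 12 (5.06%), and 3 without the 4 libraries (1.74%). Leaving out each library gave 0 to 5. Of all genes in that comparison, 275 were higher and 55 lower, against 719 and 435 with DESeq2 and 24 and 2 with 6 libraries. The cause of these shifts was not tested. Counts of 0 for CD45.1 zones and for the difference of zone effects stayed 0 in these settings. No log2 fold change of a gene that passed changed sign.

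With 3 libraries per group, 1 time point and no uninjured heart, a p that misses the threshold does not show that levels were alike. What sets replicate 1 apart is not in the labels. Counts per gene measure neither splicing of Xbp1 nor protein.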
